A study of Homo sapiens with 2 samples.

Results

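Kinesins are motor proteins that hydrolyse ATP to move along microtubules or to shorten them, and the 42 protein-coding genes described here are those whose symbol is KIF or KIFC followed by a number, with a letter A, B or C where there is one. They were taken by symbol and biotype from 46427 gene rows, of which 19672 were protein-coding. RNA was sequenced from cells of the pancreatic adenocarcinoma line labelled MiaPaca2, 1 library after 48 hours with iMQT_020 and 1 library after 48 hours with vehicle. iMQT_020 is described in the series as an inhibitor of the mitochondrial glutamine transporter, and both libraries are of total RNA from that line, grown under 1 set of culture conditions. With 1 library per treatment no test was possible, and the treatment cannot be told apart from any other difference between the 2 cultures or libraries.

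The libraries held 59139157 (iMQT_020) and 67095283 (vehicle) estimated counts. Ratios are log2 of counts scaled to library size (CPM, by the TMM method), iMQT_020 over vehicle, so that a positive value means higher in the iMQT_020 library, and brackets give an exact 95% interval that covers counting error only. Genes with 50 or more counts in either library are called measured, which covers 14805 genes and 38 of the 42 kinesins. The labelled line was checked first: KRT8, KRT18 and VIM, an epithelial pair and a mesenchymal filament gene, were at 92.3, 77.5 and 438 TPM in the iMQT_020 library, against 128, 97.4 and 403 TPM in the vehicle library. CDKN2A, a gene deleted in the MIA PaCa-2 line, stood at 208 TPM (iMQT_020) and 278 TPM (vehicle), while CD44 had 3 counts (iMQT_020) and 16 counts (vehicle) and EPCAM 0 counts (iMQT_020) and 4 counts (vehicle). CDKN2B and MTAP, also known to be deleted in that line, stood at 13.5 and 26.2 TPM (iMQT_020) and at 8.04 and 33.7 TPM (vehicle). The deleted genes and CD44 thus go against the label, whereas KRT8, KRT18 and VIM were expressed. The cells are called here the labelled line.

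Kinesins divide by the work they do. Mitotic kinesins build the bipolar spindle, move or align chromosomes, and organise the central spindle along which the cell divides, and many are transcribed mainly in the G2 and M phases of the cell cycle. Transport kinesins carry vesicles, organelles and protein complexes through the cytoplasm at all times, often with light chains or adaptors that hold the cargo. A further group acts in cilia, at microtubule ends, or in roles that are little known. By these textbook roles 14 of the 42 genes were placed as mitotic, 15 as transport, and 13 as ciliary or other.

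Beyond 2-fold, 0 of 38 measured kinesins were higher with iMQT_020 and 2, KIFC2 and KIF12, were lower. Of all 14805 measured genes, 2.15% were higher and 3.09% lower by that rule, 5.23% in either direction, so the share of kinesins lay near the background. At a 1.5-fold rule 3 kinesins were higher (KIF4A, KIF14 and KIF18A) and 3 lower (KIFC3, KIFC2 and KIF12), against 6.3% and 10.2% of all measured genes (16.5% in either direction). The counting interval lay wholly above 0 for 16 kinesins and wholly below 0 for 11, against 35% and 39.1% of all measured genes. In bulk RNA, fewer cells in a state such as mitosis and less RNA per cell cannot be told apart. The 12 measured mitotic kinesins had a median log2 ratio of 0.20, with 8 above 0. The 15 transport kinesins had a median of 0.01, also with 8 above 0, and the 11 measured ciliary and other kinesins a median of −0.07, with 5 above 0. Over all measured genes the median was −0.02 and 47.3% lay above 0.

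The class medians lay apart, whereas the ratios of the class sums were nearly equal. All mitotic kinesins together held 82355 counts in the iMQT_020 library, against 78801 in the vehicle library, and a log2 ratio of the sums of 0.24 (0.23 to 0.25). For the transport kinesins the sums were 68635 (iMQT_020) and 65087 counts (vehicle), a ratio of 0.25 (0.24 to 0.27). KIF5B alone gave 21182 (iMQT_020) and 16364 (vehicle) of these counts, at a ratio of 0.55. The transport sum weighs genes by their counts and does not describe a rise across the class, whose median was 0.01 with 7 of 15 genes below 0. The sum without KIF5B was not computed. Mitotic kinesins made up 60.5% of all kinesin TPM with iMQT_020 and 60.9% with vehicle, and transport kinesins 29.7% with iMQT_020 and 28.7% with vehicle.

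**Figure D1:**
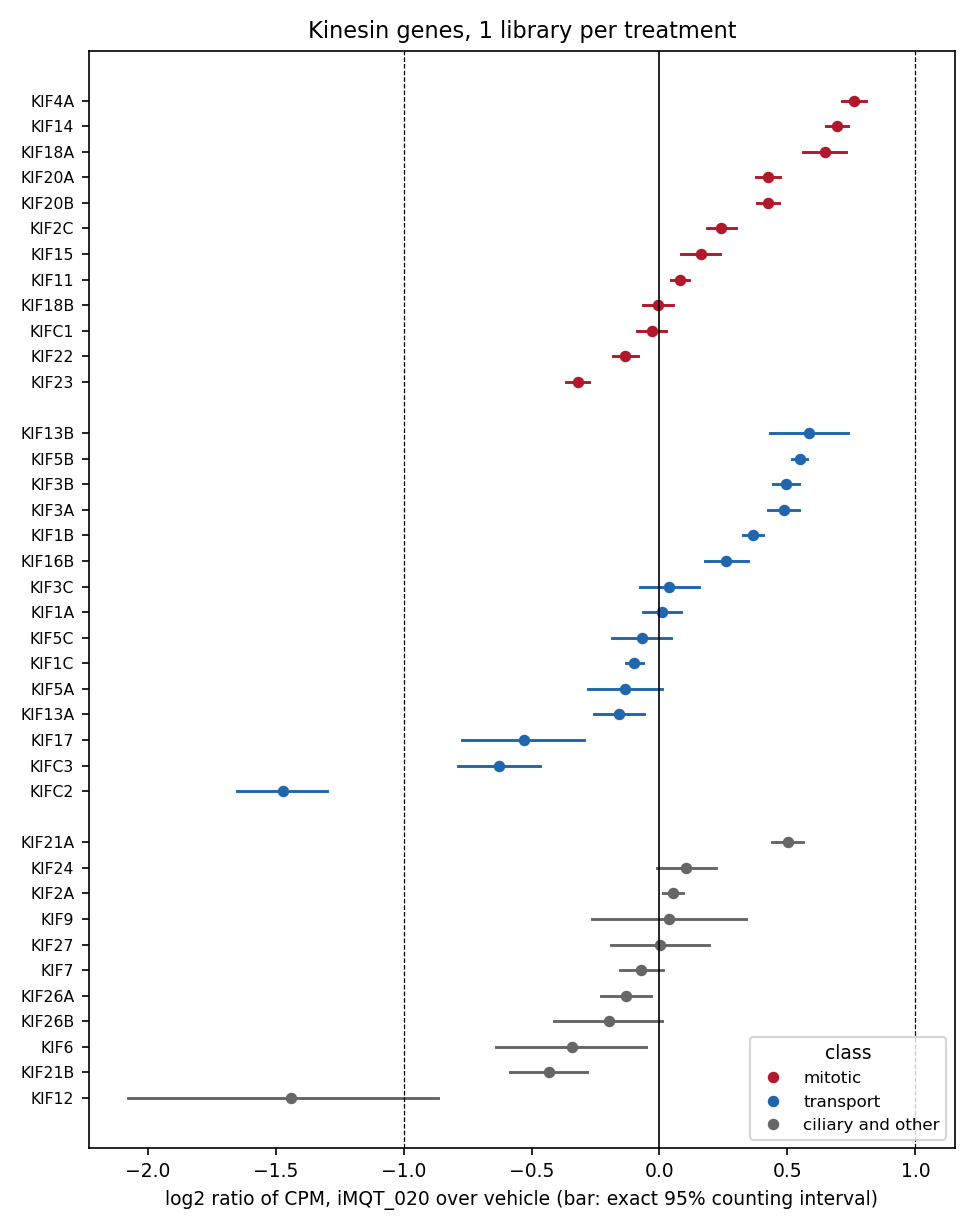
Log2 ratio of CPM, iMQT_020 over vehicle, for the 38 measured kinesin genes, by class, with exact 95% counting intervals as bars and dashed lines at 2-fold. Mitotic kinesins run from −0.32 (KIF23) to 0.76 (KIF4A), and KIFC2 and KIF12 are the 2 genes beyond the lower dashed line.

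The highest ratios of the mitotic class were those of KIF4A, KIF14 and KIF18A. KIF4A, a chromokinesin that condenses chromosomes and with PRC1 limits the length of the central spindle, had 9118 counts and 81.4 TPM in the iMQT_020 library, against 6081 counts and 46.5 TPM in the vehicle library. Its FPKM values were 32.4 (iMQT_020) and 19.1 (vehicle). The log2 ratio was 0.76 (0.71 to 0.81), with 96.3% of measured genes at a lower ratio. KIF4A lies on chromosome X from 70290104 to 70420886 (GRCh38).

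KIF14, which binds citron kinase at the midbody, had 10346 counts (iMQT_020) and 7227 counts (vehicle), or 56.3 TPM (iMQT_020) and 33.5 TPM (vehicle), and a log2 ratio of 0.69 (0.65 to 0.74). The gene lies on chromosome 1 from 200551497 to 200620751. KIF18A, a kinesin-8 motor that damps the oscillations of aligned chromosomes, had 2703 counts (iMQT_020) and 1952 counts (vehicle), and its ratio was 0.65 (0.56 to 0.73). It spans chromosome 11 from 28020619 to 28108156. These 3 genes stood between 1.56-fold and 1.69-fold higher in the iMQT_020 library.

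KIF20A and KIF20B, kinesin-6 motors of the central spindle and of abscission, had the same ratio to 2 decimals, but not after centring on GC content and length, where KIF20A was at 0.44 and KIF20B at 0.24. KIF20A was at 108 TPM with iMQT_020, against 78.3 TPM with vehicle, with a ratio of 0.42 (0.38 to 0.47). Its last bases overlap CDC23, which had 6936 counts (iMQT_020) and 7937 counts (vehicle). For KIF20B the TPM were 58.2 (iMQT_020) and 42.0 (vehicle), and the ratio was 0.42 (0.38 to 0.47). KIF23, the kinesin-6 motor that forms centralspindlin with RACGAP1, was on the other side. It had 6749 counts and 74.1 TPM in the iMQT_020 library, against 9514 counts and 90.6 TPM in the vehicle library, and the lowest ratio of the mitotic class, −0.32 (−0.36 to −0.27). By TPM it ranked 7 among the kinesins with iMQT_020 and 3 with vehicle.

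KIF2C, a kinesin-13 that depolymerises microtubules at centromeres, had 4976 counts (iMQT_020) and 4754 counts (vehicle), with a ratio of 0.24 (0.18 to 0.30). KIF15, which can stand in for KIF11 in keeping the spindle bipolar, had 2704 counts (iMQT_020) and 2733 counts (vehicle) and a ratio of 0.16 (0.08 to 0.24). KIF11 itself, the motor that pushes the spindle poles apart, was at 96.7 TPM (iMQT_020) and 88.5 TPM (vehicle), with a ratio of 0.08 (0.05 to 0.12). The centred value of KIF11, set against genes of like GC content and length, was −0.02. TMEM42, which lies within KIF15, had 251 counts (iMQT_020) and 378 counts (vehicle). The ratios of KIF2C, KIF15 and KIF11 were above 0 and small, and that of KIF11 was on the other side of 0 once centred.

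KIF18B, a kinesin-8 that shortens astral microtubules, was at 42.2 TPM (iMQT_020) and 41.6 TPM (vehicle), and its interval of −0.06 to 0.05 spanned 0. KIFC1, a minus-end motor that clusters centrosomes, was at 76.9 TPM (iMQT_020) and 75.2 TPM (vehicle), with an interval of −0.09 to 0.03. KIF22, the chromokinesin that pushes chromosome arms from the poles, was at 116 TPM (iMQT_020) and 123 TPM (vehicle), and its ratio was −0.13 (−0.18 to −0.08), or 0.06 once centred. Of the 12 measured mitotic kinesins, the counting interval lay above 0 for 8, below 0 for 2 and over 0 for 2. All 12 reached a mark of 1000 counts in either library, which was chosen after the data were seen. Of the 9312 measured genes that reached this mark, the interval lay above 0 for 3763, below 0 for 3882 and over 0 for 1667. The intervals do not cover variation between cultures. The other 2 mitotic kinesins were not measured: KIF2B had 0 counts in both libraries, and KIF4B, a near-identical retrocopy of KIF4A whose reads are hard to separate from it, had 20 counts (iMQT_020) and 7 counts (vehicle).

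**Figure D2:**
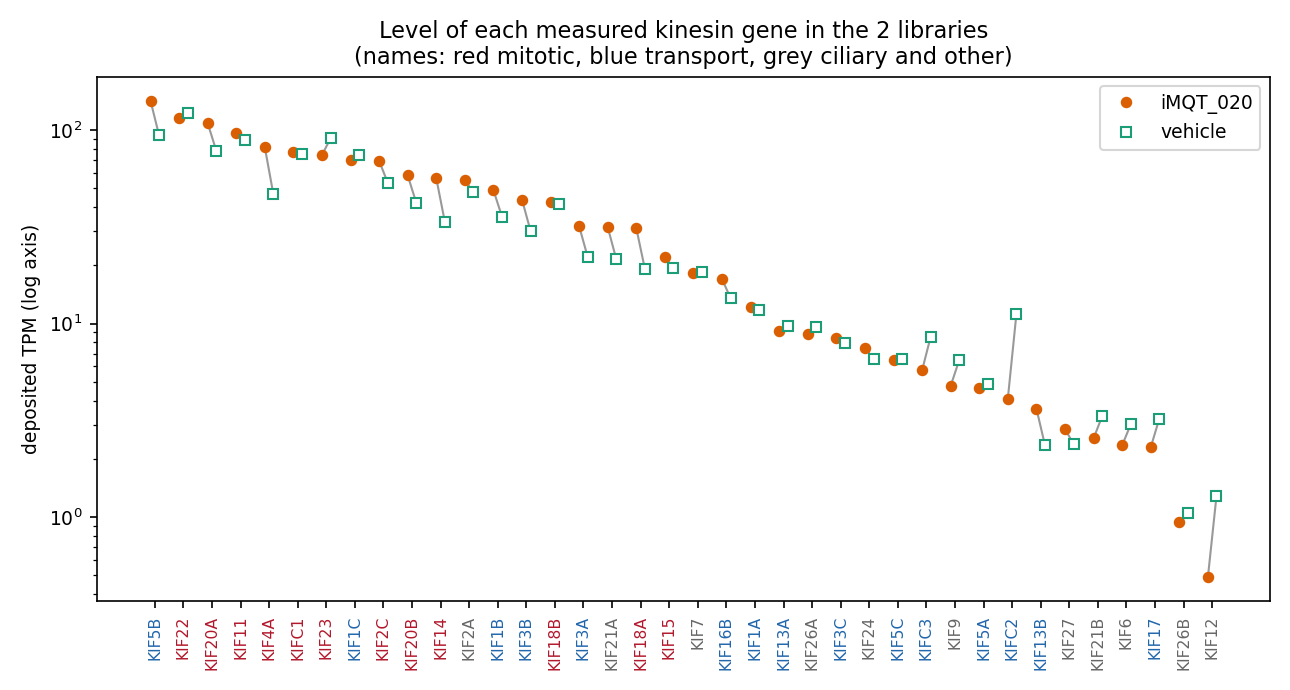
Deposited TPM of the 38 measured kinesins in the iMQT_020 library (filled circles) and the vehicle library (open squares) on a log axis, ordered by the iMQT_020 value. Levels run from 142 TPM (KIF5B) to 0.489 TPM (KIF12) with iMQT_020, and the gaps are widest for KIFC2, KIF12 and KIF4A.

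The promoters of the mitotic kinesins shared letters that those of the other classes mostly lacked. The cell cycle homology region (CHR), to which the MuvB complex binds, and the CCAAT box, which NF-Y binds, are known elements of genes transcribed in G2 and M. RefSeq promoters (GRCh38.p14, 250 bases before to 50 after the start) were given for 34 of the 42 kinesins and searched for TTTGAA or TTCGAA (CHR) and CCAAT on both strands, that is also TTCAAA and ATTGG; the motifs do not overlap each other. A CHR match was found in 11 of 14 mitotic, 1 of 11 transport and 1 of 9 ciliary or other kinesins, against 19.5% of 27305 genes with a promoter. Both motifs were present in 10 of 14 mitotic kinesins and in 7.85% of all those genes. Among measured genes the shares were 15.4% for CHR and 6.54% for both.

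Positions −90 to 10, counted from the RefSeq start as 1, are shown for the 3 mitotic kinesins highest in the iMQT_020 library, for KIF11 and KIF18B, which were near 0, for KIF22 and KIF23, which were below 0 (KIF22 not once centred), and for the transport kinesins KIF5B and KIF3B. Capitals mark CHR and CCAAT matches on either strand. All are written 5′ to 3′ on the strand of the gene.
KIF4A, chrX:70290014-70290113, plus strand: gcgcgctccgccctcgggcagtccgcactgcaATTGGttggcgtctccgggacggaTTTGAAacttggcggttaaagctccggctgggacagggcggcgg
KIF14, chr1:200620742-200620841, minus strand: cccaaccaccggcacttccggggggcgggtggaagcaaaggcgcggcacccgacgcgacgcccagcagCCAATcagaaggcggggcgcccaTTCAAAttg
KIF18A, chr11:28108147-28108246, minus strand: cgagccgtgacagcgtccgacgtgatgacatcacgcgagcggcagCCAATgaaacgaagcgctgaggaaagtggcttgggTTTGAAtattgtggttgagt
KIF11, chr10:92593040-92593139, plus strand: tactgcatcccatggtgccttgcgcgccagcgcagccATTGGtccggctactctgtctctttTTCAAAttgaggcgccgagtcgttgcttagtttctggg
KIF18B, chr17:44947764-44947863, minus strand: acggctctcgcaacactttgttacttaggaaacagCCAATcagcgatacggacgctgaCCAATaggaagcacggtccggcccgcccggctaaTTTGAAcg
KIF22, chr16:29790661-29790760, plus strand: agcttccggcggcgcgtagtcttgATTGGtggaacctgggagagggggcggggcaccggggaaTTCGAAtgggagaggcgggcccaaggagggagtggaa
KIF23, chr15:69414259-69414358, plus strand: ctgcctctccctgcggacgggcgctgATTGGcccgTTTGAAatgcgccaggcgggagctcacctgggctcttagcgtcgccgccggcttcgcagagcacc
KIF5B, chr10:32056416-32056515, minus strand: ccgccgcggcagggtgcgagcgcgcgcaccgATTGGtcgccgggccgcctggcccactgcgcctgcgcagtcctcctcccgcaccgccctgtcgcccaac
KIF3B, chr20:32277561-32277660, plus strand: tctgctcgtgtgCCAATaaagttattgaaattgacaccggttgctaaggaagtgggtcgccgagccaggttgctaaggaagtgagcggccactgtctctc

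In each of the 7 mitotic windows a CCAAT box lies upstream of a CHR match. The CHR began at −34 in KIF4A, 2 in KIF14, −10 in KIF18A, −28 in KIF11, 3 in KIF18B, −27 in KIF22 and −55 in KIF23. KIF5B holds a CHR match at −140, outside the window shown. The 10 measured mitotic kinesins with a CHR match had ratios between −0.32 and 0.76, with a median of 0.12, so genes with the motif were found at both ends of the class. KIF20A (0.42) and KIF2C (0.24) were the 2 measured mitotic kinesins without a match in this window. The match is a description of letters and is not evidence of binding.

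Genes that work with the mitotic kinesins were read from lists. Of 24 spindle and cytokinesis partners 18 were above 0, with a median of 0.30 (0.37 centred), and 0 were 2-fold apart, against 47.3% of all measured genes above 0 and 5.23% beyond 2-fold. The highest were DLGAP5, a spindle assembly factor, at 0.68 (0.63 to 0.72), and ECT2, the exchange factor that activates RhoA at the cell equator, at 0.64 (0.60 to 0.67). AURKB and INCENP, a kinase and a scaffold that KIF20A carries to the midzone, were lowest at −0.55 (−0.61 to −0.50) and −0.50 (−0.56 to −0.45). Once centred, DLGAP5 was at 0.61, ECT2 at 0.46, AURKB at −0.31 and INCENP at −0.41. CENPE, a kinesin at kinetochores that is named outside the KIF series, had 12254 counts (iMQT_020) and 9594 counts (vehicle), with a ratio of 0.53 (0.49 to 0.57). STARD9, a centrosomal kinesin, had 1074 counts (iMQT_020) and 1206 counts (vehicle) and a ratio of 0.01 (−0.11 to 0.13).

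The 14 genes for activators and repressors of G2 and M transcription had a median of −0.03 (0.01 centred), with 7 above 0. FOXM1, a transcription factor of mitotic genes, had 12817 counts (iMQT_020) and 10061 counts (vehicle), with a ratio of 0.53 (0.49 to 0.56), and the MuvB subunit LIN54, which contacts the CHR, was at 0.48. MYBL2, which joins MuvB before mitosis, was at −0.16 (−0.19 to −0.13). RBL1, the pocket protein p107, was lowest at −0.62 (−0.70 to −0.54), followed by the histone-binding MuvB subunit RBBP4 at −0.32. The list held genes that activate and genes that repress, and its members lay on both sides of 0.

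Transport kinesins went both ways. KIF5B, the widely expressed heavy chain of conventional kinesin, had 21182 counts and 142 TPM in the iMQT_020 library, against 16364 counts and 93.8 TPM in the vehicle library. It was the most abundant kinesin with iMQT_020 and the second with vehicle, and its ratio was 0.55 (0.52 to 0.58). The gene lies on chromosome 10 from 32009015 to 32056425. KIF5A and KIF5C, the neuronal heavy chains, were low and near 0, at 4.65 and 6.51 TPM with iMQT_020, against 4.84 and 6.57 TPM with vehicle. Their ratios were −0.13 (−0.28 to 0.01) and −0.07 (−0.19 to 0.04), and KIF5B made up 92.7% of KIF5 TPM with iMQT_020 and 89.2% with vehicle.

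KIF3A and KIF3B form the kinesin-2 motor that drives transport into cilia. KIF3A had 4965 counts (iMQT_020) and 4006 counts (vehicle), with a ratio of 0.49 (0.43 to 0.55). KIF3B was at 43.6 TPM (iMQT_020) and 30.0 TPM (vehicle), with a ratio of 0.49 (0.44 to 0.55). The ratios of these 2 partners were equal to 2 decimals, while KIF3C, which can also pair with KIF3A, had 1165 counts (iMQT_020) and 1282 counts (vehicle) and a ratio of 0.04 (−0.08 to 0.15). After centring on GC content and length the partners were no longer equal, with KIF3A at 0.30 and KIF3B at 0.39, and KIF3C was at 0.09. KIFAP3, the non-motor subunit, was at −0.10 (−0.17 to −0.02). KIF17, the homodimeric kinesin-2, had 235 counts (iMQT_020) and 384 counts (vehicle) and a ratio of −0.53 (−0.77 to −0.29).

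Among kinesin-3 motors, KIF1B, which moves vesicles and mitochondria, was at 48.8 TPM (iMQT_020) and 35.7 TPM (vehicle), with a ratio of 0.37 (0.33 to 0.40). KIF1C was the more abundant paralog, at 69.7 TPM (iMQT_020) and 74.3 TPM (vehicle), with a ratio of −0.10 (−0.13 to −0.07), and KIF1A, a carrier of synaptic vesicle precursors, was at 0.01 (−0.06 to 0.08). KIF13B, a carrier of signalling proteins with 815 counts (iMQT_020) and 614 counts (vehicle), had the highest ratio of the class, 0.58 (0.43 to 0.74). Its paralog KIF13A, which moves recycling endosomes, had 1557 counts (iMQT_020) and 1964 counts (vehicle) and a ratio of −0.16 (−0.26 to −0.06). KIF16B, a motor of early endosomes, was at 0.26 (0.18 to 0.35).

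The minus-end motors KIFC2 and KIFC3 were the lowest transport kinesins. KIFC2, which carries vesicles in the dendrites of mouse neurons, had 349 counts and 4.10 TPM in the iMQT_020 library, against 1095 counts and 11.2 TPM in the vehicle library. The log2 ratio was −1.47 (−1.65 to −1.30), 2.77-fold lower, and 0.878% of measured genes had a lower ratio. On the scale of log2(FPKM + 1) the difference was −1.09 and on log2(TPM + 1) it was −1.26. KIFC2 lies on chromosome 8 from 144466049 to 144474202, where its end overlaps FOXH1, which had 9 counts (iMQT_020) and 10 counts (vehicle). KIFC3, a motor at cell junctions and the apical membrane, had 508 counts (iMQT_020) and 886 counts (vehicle), with a ratio of −0.63 (−0.79 to −0.47).

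**Figure D3:**
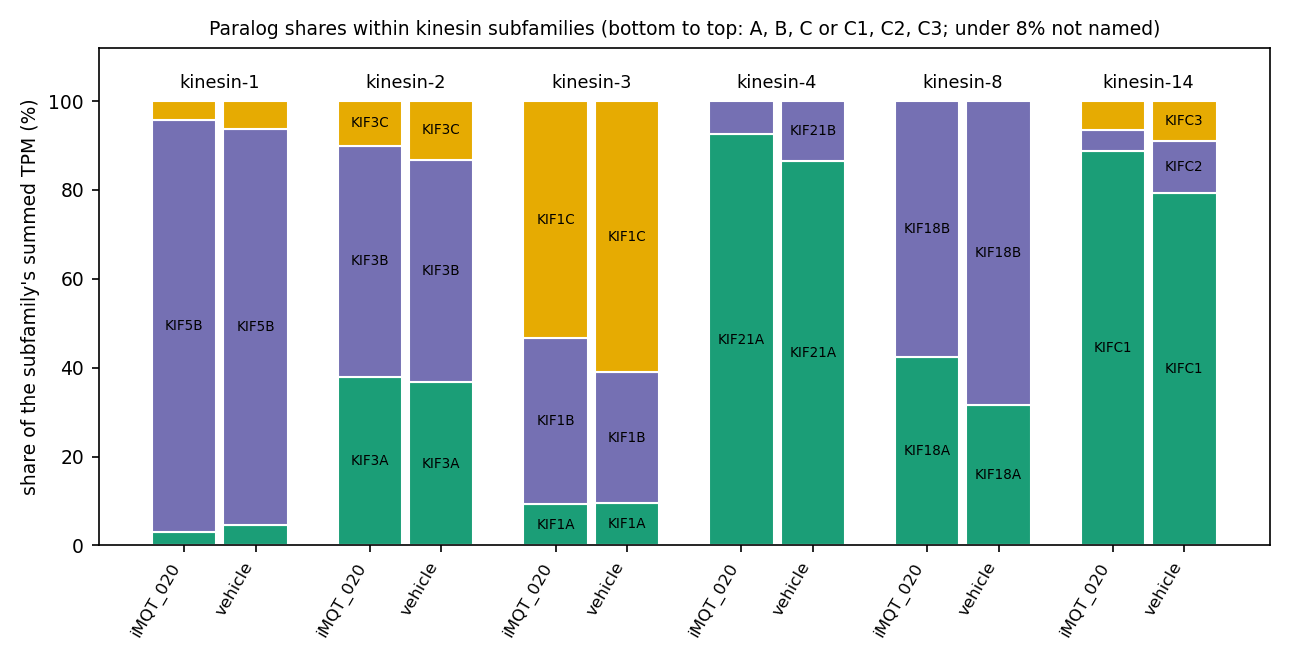
Share of each paralog in the summed TPM of the KIF5, KIF3, KIF1, KIF21, KIF18 or KIFC genes. The iMQT_020 bar is left of the vehicle bar in each pair, and paralogs are stacked from A or C1 at the bottom. Bars are headed by subfamily but hold only these genes. Other members, such as KIF17 of kinesin-2 and the KIF13 genes of kinesin-3, are left out. KIF18A takes 42.4% of KIF18 TPM with iMQT_020 and 31.5% with vehicle, and KIFC2 4.72% of KIFC TPM with iMQT_020 and 11.8% with vehicle.

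Paralogs named alike, such as KIF18A and KIF18B, often lay apart, though such a set is not always a whole subfamily. KIF21A and KIF21B, kinesin-4 motors that restrain microtubule growth, had ratios of 0.50 (0.44 to 0.56) and −0.43 (−0.58 to −0.28), a gap of 0.93. Between KIF13B and KIF13A the gap was 0.74, across the KIF5 genes 0.68, between KIF18A and KIF18B 0.65, and across the KIF1 and KIF3 genes 0.46 each. The widest gap, 1.44, was that between KIFC1 and KIFC2. The narrowest were 0.19 for KIF2A and KIF2C, 0.07 for the KIF26 genes and under 0.01 for the KIF20 genes. Once centred, these gaps were 0.37, 0.38 and 0.21, and that across the KIF3 genes was 0.30. The KIF20 pair leaves out KIF23, also a kinesin-6 motor, at −0.32, so its gap is not that of the subfamily. The KIF1, KIF3, KIF5 and KIFC gaps run across more genes than a pair, which can widen them. The quartiles of the log2 ratio over all measured genes were −0.27 and 0.22. Whether paralogs lay further apart than other genes was not tested. In TPM, KIF21A made up 92.5% of the KIF21 sum with iMQT_020 and 86.6% with vehicle, and KIF1B 37.4% of the KIF1 sum with iMQT_020 and 29.3% with vehicle.

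Ciliary and other kinesins were mostly near 0. KIF12, a kinesin of kidney epithelium in the mouse, had few counts, 32 (iMQT_020) and 99 (vehicle), and a ratio of −1.44 (−2.08 to −0.87), which was −0.61 on the log2(TPM + 1) scale. It lies on chromosome 9 from 114091638 to 114099292. The other 10 measured genes were within 1.5-fold. Leaving out KIF21A and KIF21B, they ran from KIF6 at −0.34 (−0.64 to −0.05) to KIF24, which suppresses cilia at the mother centriole, at 0.10 (−0.01 to 0.22). KIF7, the regulator of Hedgehog signalling at the tip of the cilium, was at −0.07 (−0.16 to 0.01), and KIF2A, a depolymerase of spindle poles and growth cones, at 0.05 (0.01 to 0.09). KIF19 had 0 counts (iMQT_020) and 8 counts (vehicle). Set against a floor of 3 counts per library this is 2.36-fold lower, a figure that leaves out counting error. The counting interval of its log2 ratio ended at −0.60, which allows a smaller fall. KIF25 had 3 counts (iMQT_020) and 0 counts (vehicle), and no fold is given.

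The transcript length implied by the counts and the deposited FPKM differed most between the libraries for KIF9 and KIF27. Counts divided by FPKM and library total give an implied length that follows the transcripts to which reads were assigned. It is not their exact length: for KIF4A, with 1 transcript, it was 4757 bases with iMQT_020, against 4388 bases for the canonical transcript. Only its ratio between the libraries is read here. For KIF9, a kinesin of motile cilia with 178 counts (iMQT_020) and 196 counts (vehicle), this length was 1587 bases with iMQT_020 and 1096 bases with vehicle. Its log2 ratio was 0.04 (−0.26 to 0.34) in counts, but in TPM the levels were 4.76 (iMQT_020) and 6.48 (vehicle). KIF9-AS1, an antisense gene that overlaps KIF9, had 74 counts (iMQT_020) and 98 counts (vehicle), and without strand the reads cannot be told apart. For KIF27 the lengths were 6405 bases (iMQT_020) and 7377 bases (vehicle). The other 36 measured kinesins had a ratio of lengths between 0.9 and 1.1, and 5.54% of all 14794 measured genes with an FPKM in both libraries lay outside these bounds. Within the bounds counts and FPKM could still part. KIF2C was at 0.24 in counts and 0.31 on the log2(FPKM + 1) scale, and KIF2A at 0.05 and 0.15.

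The ratio of kinesins varied with the base composition of their transcripts. Over the 38 measured kinesins, Spearman's rho between log2 ratio and GC content of the canonical transcript was −0.65, against −0.34 over 13853 measured genes, as a description across genes of the same 2 libraries. Of 12 kinesins under 45% GC 10 were above 0, with a median of 0.29. Of 14 at 45% to 55% GC 9 were above 0, and of 12 at 55% or more 2 were above 0, with a median of −0.13. All measured genes had medians of 0.09, −0.03 and −0.22 in these ranges, with 62.1%, 46.4% and 28.9% above 0. The mitotic kinesins at 55% or more, KIF18B, KIFC1 and KIF22, were all below 0, and those at 45% to 55%, KIF4A, KIF20A and KIF2C, all above. KIF18B was above 0 with scaling by total counts or the upper quartile, KIF18B and KIFC1 were above 0 in deposited TPM, and KIF18B, KIFC1 and KIF22 were above 0 once centred.

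**Figure D4:**
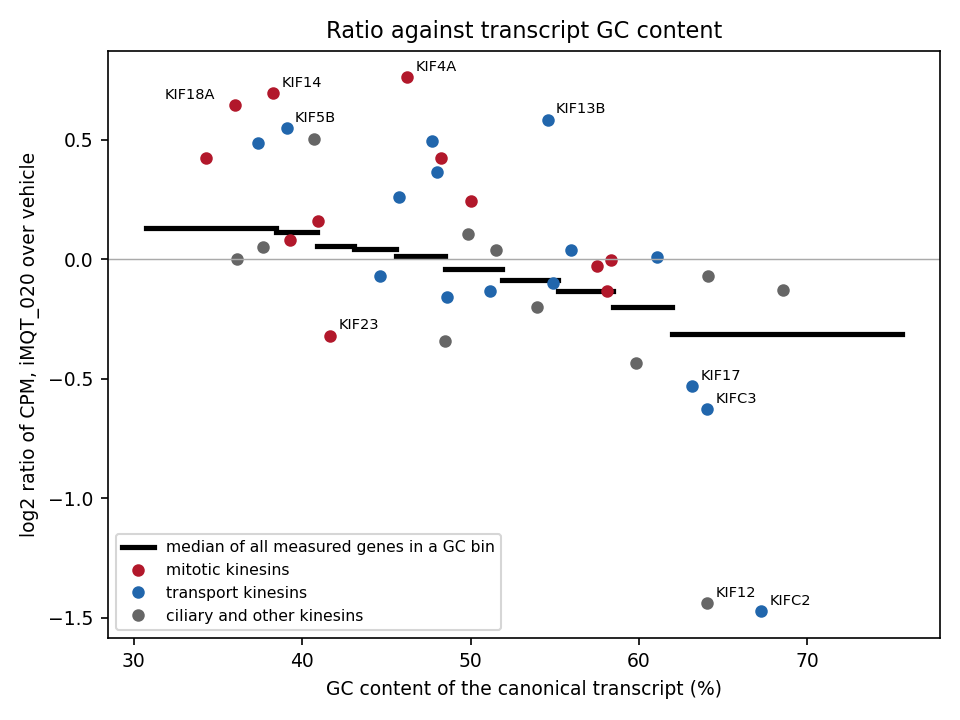
Log2 ratio of CPM, iMQT_020 over vehicle, against GC content of the canonical transcript for the 38 measured kinesins, coloured by class. Black bars are medians of all measured genes in 10 bins of GC content, which run from 0.13 in the lowest to −0.31 in the highest; KIF4A, KIF13B and KIFC2 lie far from the bar at their GC content.

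When each ratio was set against the median of genes with like GC content and length, the mitotic median was 0.20 with 10 of 12 above 0, and the transport median was −0.11 with 7 of 15 above 0. KIF4A was then at 0.71, KIF18A at 0.54, KIF14 at 0.51 and KIF23 at −0.39, and KIFC2 at −1.23 and KIF12 at −1.11. KIF5B was at 0.33, KIF3A at 0.30, KIF21A at 0.28 and KIF1B at 0.22, each over 1.5 times smaller than uncentred. Of the 38 ratios 10 changed sign, those of KIF11, KIF18B, KIFC1, KIF22, KIF24, KIF2A, KIF27, KIF7, KIF26A and KIF1A, none of them above 0.13 in size before. The part of base composition in the uncentred ratios was not tested beyond this.

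On the cargo side, 10 of 14 light chains and adaptors were above 0 and the median was 0.04, or 0.20 centred, with 0 at least 2-fold apart (5.23% of all measured genes). TRAK2, a mitochondrial adaptor, and PLEKHM2, which links lysosomes to kinesin-1, were at 0.51 (0.44 to 0.58) and 0.41 (0.35 to 0.47). KLC3 and RHOT2, a light chain and a mitochondrial GTPase, were at −0.71 (−0.89 to −0.54) and −0.44 (−0.50 to −0.39). Once centred, TRAK2 was at 0.39, PLEKHM2 at 0.49, KLC3 at −0.40 and RHOT2 at −0.11. Of 21 measured dynein and dynactin genes, the minus-end motor of the same tracks, 14 were above 0, with a median of 0.15, or 0.08 centred, and 0 at least 2-fold apart. NDE1 and DYNLL2 were highest at 0.53 (0.46 to 0.60) and 0.48 (0.43 to 0.53). DYNC1I1 and DYNLRB1 were lowest at −0.29 (−0.62 to 0.03, over 0) and −0.15 (−0.21 to −0.08). Once centred, NDE1 was at 0.64, DYNLL2 at 0.37, DYNC1I1 at −0.28 and DYNLRB1 at 0.04.

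The tubulins, whose alpha and beta forms are the subunits of the track itself, were mostly lower with iMQT_020. The list also held the gamma, delta and epsilon genes, TUBD1 among them, which are not subunits of the track. Of 14 measured tubulin genes 11 were below 0 and 6 were lower by 1.5-fold or more, 1 of them by over 2-fold. Of all measured genes 10.2% were lower by 1.5-fold, 3.09% lower by 2-fold and 47.3% above 0. The tubulin median was −0.57, or −0.32 after centring on GC content and length. TUBA4A, with 89 counts (iMQT_020) and 301 counts (vehicle), was at −1.58 (−1.94 to −1.24). TUBB, an abundant beta-tubulin, was at 938 TPM in the iMQT_020 library, against 1810 TPM in the vehicle library, and the interval of its ratio ran from −1.01 to −0.98. TUBB3 and TUBD1 were highest at 0.45 (0.28 to 0.63) and 0.32 (0.21 to 0.43). Summed over the genes, tubulins stood at 4368 TPM (iMQT_020) and 6692 TPM (vehicle), and the 42 kinesins at 1377 TPM (iMQT_020) and 1168 TPM (vehicle). Reads of close tubulin paralogs are hard to separate, so single members are less certain than the sum.

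**Figure D5:**
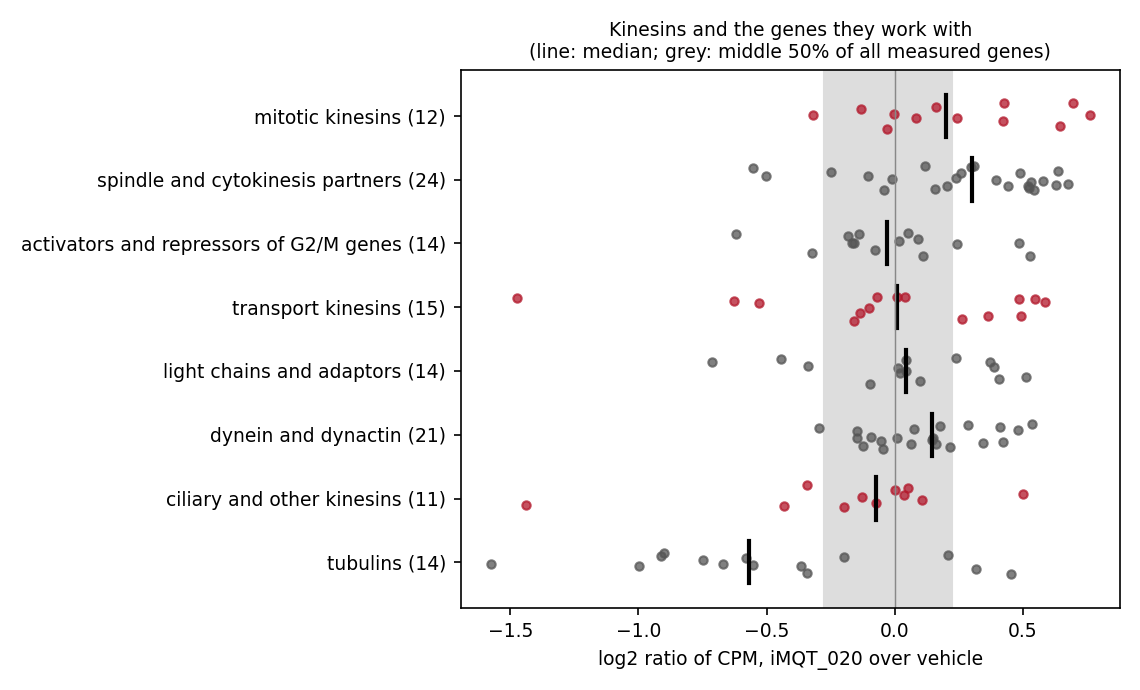
Log2 ratio of CPM, iMQT_020 over vehicle, for kinesins (red) and the genes they work with (grey), 1 point per measured gene, with the number of genes in brackets, a black line at each median and a band for the middle 50% of all measured genes. The median is 0.30 for spindle partners, 0.20 for mitotic kinesins, 0.01 for transport kinesins and −0.57 for tubulins.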

How the data were processed

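RNA of the labelled line MiaPaca2 was sequenced, 1 library per treatment. Reads were mapped to GRCh38 with HISAT2 and Bowtie2, per the labels' protocols, and StringTie and edgeR appear in the submitters' processing notes with neither a version nor a stated use. How reads were counted, with what strand setting and at what read length, is not given in the sources used here. For each gene the table deposited by the authors holds an estimated count (a whole number), an FPKM value scaled by length and depth, and a TPM value scaled so that libraries sum alike. A second, shorter table repeats the FPKM of 20787 genes, 39 kinesins among them. Columns were assigned by name, with 0 left over.

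Counts were scaled by TMM (edgeR 4.0.16, R 4.3.3), with factors of 1.00 (iMQT_020) and 0.998 (vehicle) and a prior count of 0.5. Exact Clopper-Pearson 95% intervals treat the estimates as whole reads, cover counting error only and can be too narrow. Kinesin members, classes and the other gene lists were chosen with earlier results of these data known. By the naming rule, every kinesin could be named, with full values for measured mitotic and transport kinesins, and of each other list the 2 highest and 2 lowest members, with FOXM1, MYBL2, CENPE and STARD9. Alternatives were median of ratios (DESeq2 1.42.0), total counts, upper quartile, minimum counts of 10, 200 and none, a prior count of 5, deposited FPKM and TPM as log2(value + 1) for genes at 1 or more, other class lists, genes overlapping no other, a 1.5-fold rule, an interval rule, and centring in 10 bins of GC content by 10 of length from canonical GENCODE 44 transcripts, which covered 93.6% of measured genes. Gene spans came from RefSeq (GRCh38.p14). The calculation was checked on simulated counts. Python 3.11.15, numpy 2.4.6, pandas 2.3.3 and scipy 1.17.1 were used.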

Additional observations from a re-analysis of the deposited data

How the results depend on the processing

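No paired analysis was possible because each treatment had 1 library, and for the same reason no library could be left out. The count of kinesins at least 2-fold apart, 2 in the main analysis, was 2 with every other scaling, with a prior count of 5, after centring and with the TPM ratio itself (chosen after the data were seen), and 3 with a minimum of 10 counts. It was 1 with a minimum of 200 counts, with log2(FPKM + 1) or log2(TPM + 1), with at least 1000 counts in a library (chosen after the data were seen) or when the interval had to lie beyond 2-fold, 5 with no minimum count and 6 with the 1.5-fold rule. KIFC2 was 2-fold lower under each of these, and KIF12, with under 100 counts, was not under the settings that gave 1. The mitotic median of 0.20 was 0.27 with log2(TPM + 1), 0.28 with the TPM ratio itself (chosen after the data were seen) and 0.42 over the 3 mitotic genes that overlap no other, and it was above 0 under all alternatives run. The transport median of 0.01 was 0.15 over the 8 genes that overlap no other, and it was below 0 with median of ratios (−0.0019) and after centring on GC content and length (−0.11). The cause was not tested. The difference of the medians, 0.19, was 0.31 after centring and lay between 0.15 and 0.27 otherwise. Depth limits KIF12, KIF9, KIF6 and the 4 unmeasured kinesins most.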
